A study of Mus musculus with 6 samples.

Results

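The anaphase-promoting complex (APC/C) was followed here through 10 of its genes, taken by name from the 55487 genes of the deposited count table. They are the activators Cdc20 and Fzr1, the inhibitors Fbxo43 (EMI2) and Fbxo5 (EMI1), and the subunits Cdc27, Cdc16, Cdc23, Anapc1, Anapc4 and Anapc11. All 10 were found once in the table and all 10 passed the filter on low counts, which left 12793 genes for the test. RNA was sequenced from mouse oocytes matured in vitro, with 3 libraries labelled control (medium without metformin) and 3 labelled metformin, a biguanide that lowers blood glucose. Aged mice are named in the title of the series, but the labels of the samples give no age, strain or genotype. Both groups came from females primed with 10 IU of pregnant mare serum gonadotropin. Immature oocytes were collected 46 to 48 h later, freed of cumulus cells and kept in M16 medium for 16 h to reach the second meiotic metaphase. The protocol lists metformin at 10, 20 and 50 μM but neither the dose of the sequenced oocytes nor their number per library.

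The APC/C is a large ubiquitin ligase that marks cyclin B and securin for destruction and so lets a cell leave metaphase. An activator, CDC20 or CDH1 (the product of Fzr1), brings substrates to it, and EMI1 and EMI2 block it. In mouse oocytes CDH1 activity helps to hold the prophase arrest before maturation, CDC20 drives the first anaphase, and EMI2 keeps the egg at the second metaphase until fertilization. These proteins are controlled largely by translation, phosphorylation and destruction, which RNA levels do not report.

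The activators and the inhibitors meet the complex in part through the last residues of their chains. CDC20 and CDH1 end in isoleucine and arginine, the IR tail that docks on CDC27, and EMI1 and EMI2 end in arginine and leucine, the RL tail. The last 30 coding bases of the main transcript of each gene are shown because they carry this shared feature. They were read from GENCODE M21 transcripts (GRCm38), 5′ to 3′, and the capitals mark the last 2 codons before the stop codon.
Cdc20: aaaagtagcctcatccaccaaggcATCCGT
Fzr1: tctgtgctcaacctcttcacccggATCCGA
Fbxo43: gcccaaagcaagcggaacttaaaaCGCCTC
Fbxo5: aaaaagagtaaaaagaacttacaaAGATTG
All 4 stretches lie on the minus strand, at chr4:118432966-118432995 for Cdc20, chr10:81367512-81367541 for Fzr1, chr15:36151647-36151676 for Fbxo43 and chr10:5799574-5799603 for Fbxo5. Each lies in the last exon of its transcript, which is exon 10 of 10 for Cdc20, 14 of 14 for Fzr1, and 5 of 5 for both Fbxo43 and Fbxo5. The capitals read isoleucine and arginine in both activator genes, with different codons for the arginine (CGT and CGA). They read arginine and leucine in both inhibitor genes, with different codons for both residues.

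Total counts ranged from 8622281 to 10588292 per library. The 12 oocyte markers all passed the filter, with summed levels of 31500 to 34804 CPM (counts normalised to library size, with TMM scaling) in controls and 29482 to 41431 CPM with metformin. Of 11 cumulus and granulosa markers 2 reached the test, Cyp19a1 (318 to 489 reads per library) and Nr5a2 (159 to 188 reads). The summed level of the 11 was between 55.3 and 66.6 CPM over all libraries, mostly from these 2. Ptx3, Amh and Foxl2 had 0 reads in every library. Reads of the 4 haemoglobin genes numbered 281 in control replicate 1 and 0 to 2 in the others, and those of the collagen genes Col1a1 and Col1a2 numbered 45 in that library and 0 to 4 in the others. Without it, the 10 members' log2 fold changes lay between -0.11 (Cdc27) and 0.19 (Fzr1), and 0 passed the test. In bulk samples such as these, fewer cells of a type and less RNA per cell cannot be told apart.

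The level of a gene was compared with that of another only per length, and the length mattered. The deposited FPKM values of all 10 members imply a gene length equal, within 1 base, to the sum of every distinct annotated exon, with overlapping exons of alternative transcripts each counted. The same was true of 4184 out of 4311 genes that had 200 or more counts in each library. A gene with many annotated transcripts therefore has a lower FPKM for the same reads. For Cdc20 the FPKM length was 2299 bases against 1793 for its longest principal protein-coding transcript, here called the main transcript. For Cdc23, with 8 annotated transcripts, it was 11329 against 4133 bases. Levels are given as FPKM and, beside them, as CPM per kilobase of the main transcript.

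By deposited FPKM, Cdc20 was the most abundant member at 73.7 ± 8.55 FPKM (SD, n = 6 libraries). It was followed by Cdc27 at 51.7 ± 4.25, Fbxo5 at 40.3 ± 10.1 and Fbxo43 at 36.7 ± 3.74 FPKM. These 4 genes stood above 91% of the genes tested. A wide gap separated them from Anapc11 at 9.87 ± 1.35, Anapc4 at 8.55 ± 1.60, Anapc1 at 5.41 ± 0.407 and Cdc16 at 4.08 ± 0.436 FPKM. Cdc23 at 2.52 ± 0.417 and Fzr1 at 1.95 ± 0.356 FPKM were lowest. Between neighbours in this order, the ranges over the 6 libraries overlapped for Cdc27 and Fbxo5, Fbxo5 and Fbxo43, Anapc11 and Anapc4, and Cdc23 and Fzr1. The remaining neighbours did not overlap. Compared within a library, Cdc27 was above Fbxo5 in 6 of 6 libraries and Cdc23 above Fzr1 in 5. Fbxo5 was above Fbxo43 in 4 libraries, and Anapc11 above Anapc4 also in 4.

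Per kilobase of the main transcript the same 4 genes led, Cdc20 at 94.6 ± 9.93, Cdc27 at 73.2 ± 3.25, Fbxo5 at 48.2 ± 10.04 and Fbxo43 at 48.2 ± 2.79 CPM per kb (SD, n = 6), and Fzr1 was again lowest at 4.35 ± 0.630. The order turned only between Anapc4 (19.1 ± 2.81) and Anapc11 (18.8 ± 2.87), and between Cdc23 (6.98 ± 1.47) and Cdc16 (6.55 ± 0.647), whose ranges overlapped in both cases. Cdc27, Cdc16 and Cdc23 encode tetratricopeptide-repeat subunits that each occur as a pair in the complex. Their transcripts were far from equal: per kilobase of the main transcript, Cdc27 stood 11.3 ± 1.496 times above Cdc16 and 10.9 ± 2.60 times above Cdc23 within a library (SD, n = 6). By FPKM these ratios were 12.8 ± 1.69 and 21.2 ± 5.04.

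**Figure D1:**
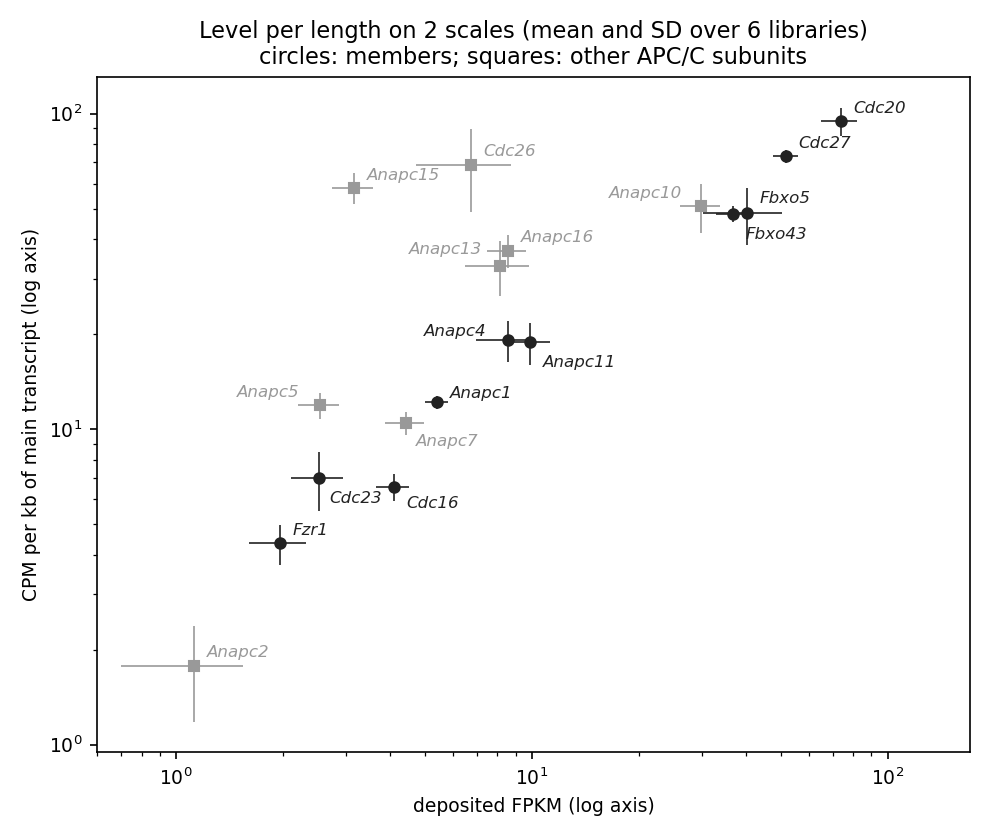
Mean level of the 10 members (circles) and the 8 other APC/C subunits (squares) over 6 libraries, as deposited FPKM (horizontal, log axis) and as CPM per kilobase of the main transcript (vertical, log axis), with SD bars. Cdc20 and Cdc27 are highest and Fzr1 is the lowest member on both scales, while Cdc26 and Anapc15 sit well above the other genes of like FPKM on the vertical scale.

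Coordinates of the genes are from GENCODE M21 on GRCm38. Cdc20 (ENSMUSG00000006398, chromosome 4, 118432901 to 118437352, minus strand), the activator of anaphase, stood at 182, 155 and 191 CPM in control replicates 1 to 3 and at 180, 144 and 166 CPM in metformin replicates 1 to 3. The groups overlapped, and the lowest library of each was replicate 2. The log2 fold change, metformin over control, was -0.11 (SE 0.143), and its 95% interval ran from 0.746-fold to 1.15-fold. It did not pass the test (adjusted p = 1.00, edgeR's quasi-likelihood test with Benjamini-Hochberg adjustment over all genes tested).

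Fzr1 (ENSMUSG00000020235, chromosome 10, 81366222 to 81378516, minus strand), which encodes the activator CDH1, stood at 14.6, 11.7 and 12.3 CPM in control and at 15.3, 15.03 and 10.8 CPM in metformin libraries, from 103 to 161 reads per library. The highest and the lowest library were both metformin libraries. Its log2 fold change was 0.10 (SE 0.208), with a 95% interval from 0.779-fold to 1.47-fold (adjusted p = 1.00, edgeR). By FPKM, the Cdc20 transcript exceeded that of Fzr1 36.9, 39.6 and 46.1 times in control libraries and 34.8, 28.4 and 45.3 times in metformin libraries. The group means of this ratio were 40.8 ± 4.70 and 36.2 ± 8.52 (SD, n = 3), and the groups overlapped. Per kilobase of the main transcript they were 23.5 ± 2.70 and 20.8 ± 4.90. The activator of anaphase was thus the more abundant transcript by a wide margin in each of the 6 libraries, on either scale.

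Fbxo43 (ENSMUSG00000048230, chromosome 15, 36150060 to 36164884, minus strand), which encodes the metaphase inhibitor EMI2, was among the steadiest members. It stood at 198, 207 and 192 CPM in control and at 206, 182 and 182 CPM in metformin libraries. The coefficient of variation over all 6 libraries was 5.80%, lower than for all but 4.57% of the genes averaging at least 10 CPM. Its log2 fold change was -0.07 (SE 0.127), with a 95% interval from 0.787-fold to 1.16-fold (adjusted p = 1.00, edgeR).

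Fbxo5 (ENSMUSG00000019773, chromosome 10, 5799160 to 5805600, minus strand), which encodes EMI1, varied much more, at 101, 112 and 67.5 CPM in control and 117, 84.6 and 79.5 CPM in metformin libraries. Control replicate 3 was lowest and metformin replicate 1 highest, 1.74 times apart, so each group spanned most of the range of the other. The coefficient of variation was 20.8%, and the log2 fold change was 0.00 (SE 0.211), with a 95% interval from 0.728-fold to 1.38-fold (adjusted p = 1.00, edgeR). By FPKM the Fbxo43 to Fbxo5 ratio was 0.862, 0.819 and 1.25 in control and 0.776, 0.948 and 1.009 in metformin libraries. Its means were 0.979 ± 0.240 and 0.911 ± 0.121 (SD, n = 3). Transcripts of the 2 inhibitors were thus at like levels per length, and neither was above the other in every library.

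The Fbxo5 value carries a limit, since its main transcript matches a transcript of Glcci1 at 91.2% identity over 1759 bases, and Glcci1 had 2385 to 3130 reads per library. It also matches the predicted genes Gm45062 (0 to 6 reads) and Gm16042 (0 reads). Cdc20 matches Gm7856 at 93.7% over 1512 bases, but that gene held only 2 to 7 reads. How the authors assigned reads that match several genes is not given in the sources used here.

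**Figure D2:**
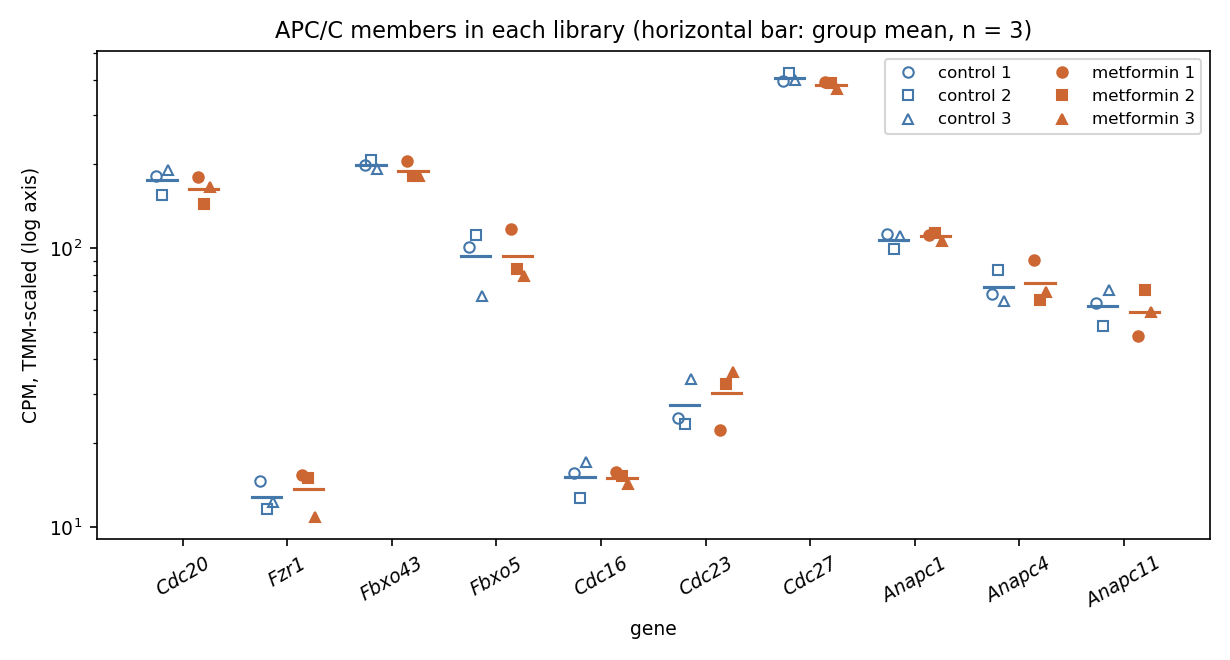
CPM of each member in each of the 6 libraries (log axis), with control libraries as open and metformin libraries as filled symbols, the shape giving the replicate number and the bar the group mean (n = 3). For 9 of 10 members the groups overlap, and the spread between replicates is widest for Cdc23 and Fbxo5.

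Among the subunits of the arm that binds the activators, Cdc27 (ENSMUSG00000020687, chromosome 11, 104502745 to 104550620, minus strand) was the steadiest member, at 397, 425 and 402 CPM in control and 396, 390 and 371 CPM in metformin libraries. It was the 1 member whose groups did not overlap, and control replicate 1 lay just above metformin replicate 1. Non-overlap was seen for 5.63% of all genes tested, and for 2.79% in the lower direction, and 1 of 10 members is not read as a result against that. The log2 fold change of Cdc27 was -0.08 (SE 0.121), with a 95% interval from 0.786-fold to 1.13-fold (adjusted p = 1.00, edgeR).

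Cdc16 (ENSMUSG00000038416, chromosome 8, 13757676 to 13781938, plus strand) stood at 15.6, 12.7 and 17.05 CPM in control and at 15.7, 15.2 and 14.2 CPM in metformin libraries, from 112 to 165 reads. The metformin libraries all lay inside the control range, and the fitted log2 difference was -0.0046, with an SE of 0.189 and an adjusted p of 1.00 by edgeR. Cdc23 (ENSMUSG00000024370) stood at 24.6, 23.4 and 33.9 CPM in control and at 22.3, 32.7 and 36.1 CPM in metformin libraries. Control replicates 1 and 2 and metformin replicate 1 were low, and the other libraries of both groups were high. Its log2 fold change was 0.15 (SE 0.220), and its 95% interval from 0.797-fold to 1.55-fold was the only one of the 10 to reach past 1.5-fold (adjusted p = 1.00, edgeR). This value rested on single libraries, being 0.0083 without metformin replicate 3 and 0.34 without control replicate 3.

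Reads of Cdc23 may be mixed with those of its neighbour. On chromosome 18 (34630951 to 34651735, minus strand) 1115 bases of the Cdc23 main transcript, 27.0% of it, are also exon of Kif20a on the opposite strand. Kif20a, a mitotic kinesin gene, held 1507 to 1850 reads against 207 to 353 for Cdc23, and the library kit does not keep the strand. Only 53 bases of Cdc20 overlap exons of another gene (Elovl1) and only 4 bases of Fzr1 (Mfsd12), and the 7 remaining members overlap no other annotated exon.

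The scaffold and catalytic subunits did not pass the test either (adjusted p = 1.00 for each of the 3, edgeR). Anapc1 (ENSMUSG00000014355, chromosome 2, 128610104 to 128687391, minus strand), which encodes the largest scaffold subunit, stood at 112, 99.7 and 110 CPM in control and at 112, 114 and 106 CPM in metformin libraries. Its coefficient of variation was 4.83%, and its log2 fold change of 0.04 (SE 0.132) had a 95% interval from 0.842-fold to 1.26-fold. Anapc4 (ENSMUSG00000029176, chromosome 5, 52834012 to 52867797, plus strand), a scaffold subunit of the platform, stood at 68.4, 83.9 and 64.8 CPM in control and at 90.6, 65.03 and 69.9 CPM in metformin libraries (log2 fold change 0.06, SE 0.173, 95% interval from 0.80-fold to 1.35-fold). Anapc11 (ENSMUSG00000025135, chromosome 11, 120598421 to 120608198, plus strand), the RING-finger subunit that holds the ubiquitin-conjugating enzyme, stood at 63.4, 52.6 and 70.9 CPM in control and at 48.4, 70.6 and 58.8 CPM in metformin libraries (log2 fold change -0.07, SE 0.180, 95% interval from 0.724-fold to 1.25-fold). The high libraries of Anapc4, control replicate 2 and metformin replicate 1, were the low libraries of Anapc11.

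Over the 10 members the comparison asked whether metformin during maturation altered the transcripts of the machinery that ends metaphase. By edgeR, 0 of 10 passed, against 0.0391% of all genes tested (5 of 12793). At an unadjusted p under 0.05 there were also 0 of 10, against 1.5% of all genes, and DESeq2 and limma-voom called 0 of 10. The fitted direction was up for 5 members and down for 5, and their median log2 fold change was -7.36e-05, against 0.01 over all genes tested. All 10 intervals excluded a 2-fold change in either direction, and all 10 excluded a fall by 1.5-fold. These p-values measure the spread between the sequenced samples, since nothing says that they came from separate animals or cultures.

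**Figure D3:**
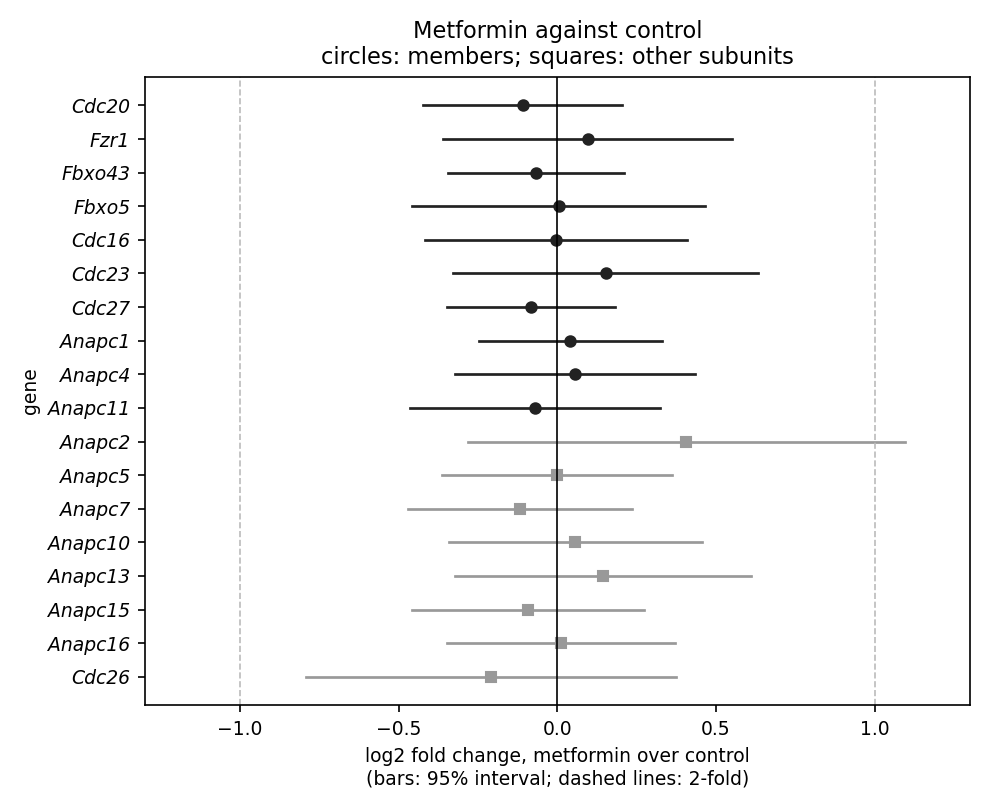
Log2 fold change of metformin over control (horizontal) for the 10 members (circles) and the 8 other subunits (squares), with 95% intervals from edgeR's quasi-likelihood fit and dashed lines at 2-fold. Every member interval includes 0 and lies inside the dashed lines, and only that of Anapc2 crosses one of them.

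Of the 8 other subunits, 0 passed by edgeR, 0 had an unadjusted p under 0.05, and 4 were fitted higher and 4 lower, with a median of 0.01. Anapc10, whose product helps to bind substrates, was the most abundant of them by FPKM, at 29.9 ± 3.84 FPKM (SD, n = 6). It stood at 229 ± 23.0 CPM in controls against 238 ± 60.7 CPM with metformin (SD, n = 3). Anapc16 stood at 67.8 ± 8.13 and 68.4 ± 10.2 CPM. Anapc2, the cullin subunit that pairs with the RING subunit, was the scarcest of all 18 genes at 1.12 ± 0.422 FPKM, from 35 to 86 reads per library. Its log2 fold change was 0.41 (SE 0.315), with an interval from 0.822-fold to 2.14-fold (adjusted p = 1.00, edgeR), and ranged from 0.13 without metformin replicate 1 to 0.66 without control replicate 1. Cdc26, a small subunit that steadies CDC16, stood at 47.5, 85.6 and 48.6 CPM in control and at 47.7, 42.2 and 67.2 CPM in metformin libraries. Control replicate 2 and metformin replicate 3 were high, and the remaining libraries were close together.

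Over all 14 subunits the level per length spanned 46.1-fold by FPKM and 41.2-fold per kilobase of the main transcript, with Anapc2 lowest on both scales and Cdc27 highest. Some subunit genes changed place between the scales. Cdc26 was in place 10 of the 18 genes by FPKM and in place 3 per kilobase of its 819-base main transcript, and Anapc15 went from place 14 to place 4. Their FPKM lengths were 8370 and 11941 bases, so the place of these genes rests on the length used. Anapc11 went from place 6 to place 11, while Anapc16 went only from 7 to 8 and Anapc13 was in place 9 on both scales.

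Of the ubiquitin-conjugating enzymes that serve the complex, 0 of 5 passed by edgeR (0 at an unadjusted p under 0.05). Ube2c, which starts ubiquitin chains, stood at 144 ± 13.0 CPM in controls against 161 ± 33.2 CPM with metformin, and Ube2s, which extends them, at 21.2 ± 3.05 and 16.01 ± 7.65 CPM (SD, n = 3). Ube2d3, a general enzyme of the Ube2d family, stood at 2810 ± 246 and 2775 ± 269 CPM. Its relative Ube2d2a varied 10.5-fold between libraries, at 151, 442 and 576 CPM in control and 55.0, 533 and 545 CPM in metformin libraries. The low library was replicate 1 in both groups.

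Of 20 substrate genes, 0 passed by edgeR and 0 had an unadjusted p under 0.05. Their median was -0.03, with 7 fitted higher and 13 lower (65%, against 47.5% of all genes tested). Pttg1, which encodes securin, was the most abundant pathway gene named here, at 1227 ± 112 FPKM (SD, n = 6), and stood at 6017 ± 34.0 CPM in controls against 5647 ± 713 CPM with metformin (SD, n = 3). Ccnb1, which encodes cyclin B1, stood at 2373 ± 338 and 2222 ± 307 CPM. By FPKM it exceeded Cdc20 3.86 ± 0.454 times in control and 3.92 ± 0.636 times in metformin libraries (SD, n = 3). Per kilobase of the main transcript these ratios were larger, at 9.73 ± 1.15 and 9.88 ± 1.60, so their size rests on the length used. The kinase genes Plk1 and Aurka had the smallest p of the list, with log2 fold changes of 0.30 (SE 0.152) and -0.18 (SE 0.157; adjusted p = 1.00 for both, edgeR).

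The spindle checkpoint holds CDC20 in an inhibitory complex until chromosomes are attached. Of its 10 listed genes 9 were tested and 0 passed by edgeR (0 at an unadjusted p under 0.05). Among the 9, 2 were fitted higher and 7 lower (77.8%, against 47.5% of all genes tested). The gene not tested, Cdc20b, a relative of Cdc20, had 0 reads in every library. Mad2l1 and Bub1b, parts of the inhibitory complex, stood at 1296 ± 102 and 1288 ± 303 CPM and at 1173 ± 110 and 1097 ± 96.9 CPM (SD, n = 3, control and metformin). Both were well above Cdc20 per length, at 123 ± 13.5 and 235 ± 27.4 FPKM (SD, n = 6). Trip13, the ATPase that takes the complex apart, was scarce, at 3.89, 3.51 and 3.10 CPM in control and 4.66, 5.21 and 5.22 CPM in metformin libraries. All metformin libraries lay above all control libraries, as for 2.84% of all genes in that direction. Its log2 fold change of 0.52 (SE 0.243) did not pass (unadjusted p = 0.0536, adjusted p = 1.00, edgeR). For Mad1l1, a kinetochore anchor of the checkpoint, the log2 fold change was -0.21 (SE 0.226).

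Of 23 genes that regulate EMI1 or EMI2, 19 were tested and 0 passed by edgeR (0 at an unadjusted p under 0.05). Their median was -0.07, with 7 fitted higher and 12 lower (63.2%, against 47.5% of all genes tested). Cul1, the cullin of the ligase that destroys both inhibitors, stood at 2620 ± 111 CPM in controls against 2624 ± 264 CPM with metformin (SD, n = 3). Plk1, which marks them for that ligase, is given above. Rps6ka1, one of the RSK kinases, stood at 4.10, 4.30 and 4.96 CPM in control and at 3.23, 3.54 and 3.58 CPM in metformin libraries. These groups did not overlap, but its log2 fold change of -0.37 (SE 0.245) did not pass (adjusted p = 1.00, edgeR). In the separase arm, 0 of 6 tested genes passed by edgeR (0 at an unadjusted p under 0.05). Espl1, which encodes separase, stood at 143 ± 16.5 and 131 ± 25.5 CPM, and Sgo2a, which protects centromeric cohesin, at 150 ± 6.59 and 143 ± 17.1 CPM (SD, n = 3). Rec8, the meiotic cohesin subunit gene, had 0 reads in every library, which allows at most 0.283 to 0.348 CPM, and was not tested. Over the 63 pathway genes tested outside the 10 members, 22 were fitted higher and 41 lower (65.1%, against 47.5% of all genes tested). Their median was -0.07 against 0.01 for all genes, and 4.76% did not overlap, against 5.63%. Whether this direction departs from that of all genes was not tested.

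For every member the gap between the group means was smaller than the range of CPM within either group. By SD this did not hold for Cdc27. Its control mean was 408 CPM (SD 15.1, n = 3) and its metformin mean 386 CPM (SD 12.9, n = 3). For Fbxo43 it held by SD in the metformin group only, with means of 199 (control, SD 7.63) and 190 CPM (metformin, SD 14.0). Among Fbxo5, Cdc23, Anapc4 and Anapc11 the differences between libraries ran in the same direction for some pairs of genes and in opposite directions for others. Anapc4 and Anapc11 had a Pearson correlation of -0.97 and a Spearman correlation of -1.0 in log2 CPM over the 6 libraries. Among the 6668 genes averaging at least 10 CPM, 21 (0.315%) correlated with Anapc4 as negatively as Anapc11 or more so. Fbxo5 and Cdc23 had -0.93 and -0.94, and Fbxo5 and Anapc4 had 0.83 and 0.83. Of the 45 pairs of members, 24 had a positive and 21 a negative Pearson correlation. These values describe 6 points that share library depth and scaling, and the pairs named were chosen after their values were seen.

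The first principal component of the libraries held 32.7% of the variance of those genes. Scores were -7.94, -6.08 and 9.39 for control replicates 1 to 3 and -20.0, 3.79 and 20.8 for metformin replicates 1 to 3. Pearson correlations with the score over 6 libraries were 0.94 for Cdc23, -0.85 for Fbxo5, -0.83 for Fbxo43, -0.70 for Anapc4 and -0.69 for Fzr1. They were 0.57 for Anapc11, -0.53 for Cdc27, -0.16 for Anapc1, -0.15 for Cdc20 and -0.0014 for Cdc16. A correlation of at least 0.8 in size was common, being found for 24.6% of those genes, so reaching 0.8 sets no member apart. The share of genes that reach the 0.94 of Cdc23 was not computed. The part of this axis in the members' levels was not tested.

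**Figure D4:**
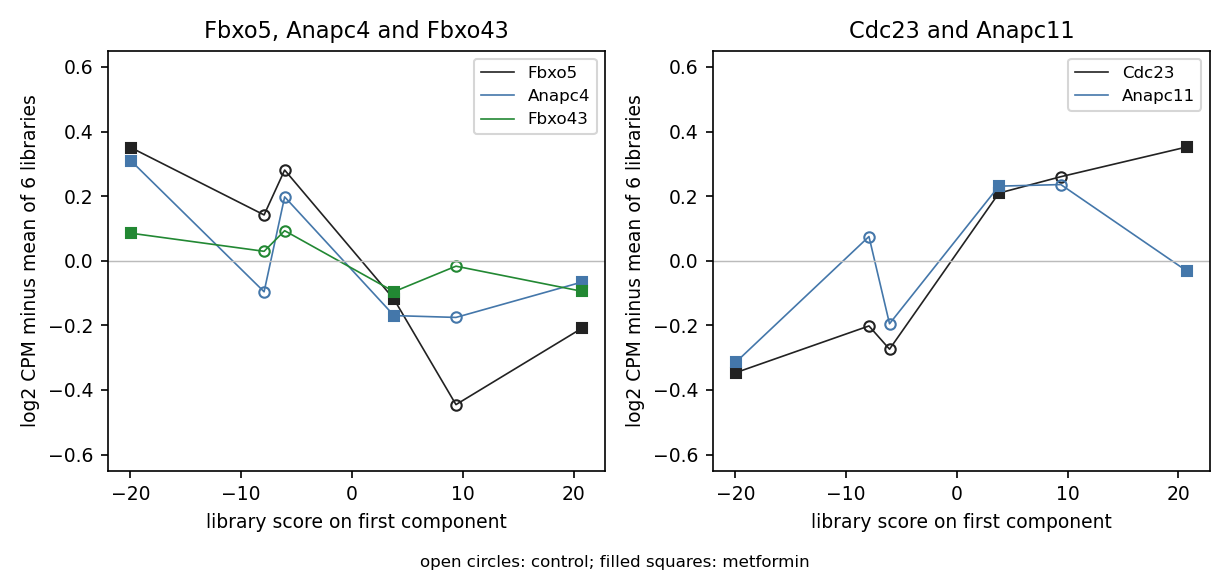
Log2 CPM of 5 members relative to their mean over 6 libraries (vertical) against the score of each library on the first principal component (horizontal), with open circles for control and filled squares for metformin libraries. Fbxo5 and Fbxo43 lie above their means in the libraries with negative scores and below them in those with positive scores, and Cdc23 does the reverse. Anapc4, below its mean in control replicate 1, and Anapc11 are less regular. Both groups have libraries on both sides.

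The genes whose log2 CPM followed that of Cdc20 most closely over the 6 libraries, among 6016 named genes averaging at least 10 CPM, were Slc15a5 (Pearson correlation 0.97), Cables2 (0.97) and Psmd5 (0.97). For Fbxo43 they were Rrbp1 (0.99), Ckap5 (0.99) and B4galt4 (0.98). Correlations of at least 0.9 were found for 40 genes with Cdc20 and for 103 with Fbxo43, and 6 libraries allow no more than this description.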

How the data were processed

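The SMART-Seq HT kit was used for the libraries, per the labels' protocols, and CASAVA 1.8, TopHat2 2.0.6 and mm10 are named in the submitters' processing notes. The counting program and the annotation release were not given in the sources used here. Raw counts and FPKM values, 1 of each per gene and library, were deposited by the authors, per the file headers. Counts entered the tests as deposited; FPKM served only to compare genes. Symbols were found for 55141 of 55487 identifiers in GENCODE M21 (GRCm38).

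Counts were tested with edgeR 4.0.16 in R 4.3.3 (quasi-likelihood, robust fit, TMM scaling, filterByExpr, all 6 libraries, group as the only term), with Benjamini-Hochberg adjustment over 12793 genes at a threshold of 0.05. The SE is the log2 fold change divided by the square root of F, and the 95% interval uses the fit's degrees of freedom. DESeq2 1.42.0, limma 3.58.1 (voom), RLE scaling, no filter, a non-robust fit, a replicate block and leaving out each library were alternatives. Near-identical copies were sought with BLAST+ 2.17.0 (at least 90% identity over 200 bases). Scripts were tested on simulated counts. Total counts of 8622281 to 10588292 put a floor of 3 counts at 0.283 to 0.348 CPM; since PCR copies share a molecule, this floor covers counting error only.

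The members and gene lists were chosen with earlier results of these data known. All 10 members were named; from each other list, any gene past the threshold, the 2 with the smallest unadjusted p and the 2 with the highest mean CPM were named. For Cdc20 and Fbxo43, the 3 genes with the highest correlation were added, passing over predicted genes with placeholder symbols. Genes with 0 reads, copies and overlapping genes are named as facts about their list or member. Lists of blood and of stroma and endothelium markers were also checked: their summed levels were 0 to 30.4 CPM, highest in control replicate 1, and 25.6 to 37.0 CPM, the latter mostly from Pecam1 (230 to 365 reads).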

Additional observations from a re-analysis of the deposited data

How the results depend on the processing

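Under all 12 alternatives 0 of 10 members and 0 of the other pathway genes passed. Genes called over the whole table numbered 5, and 8 by DESeq2; leaving out 1 library gave 5 to 12, namely 9 without control replicate 1, 5 without 2 and 8 without 3, and 9, 11 and 12 without metformin replicate 1, 2 or 3. Of 360 recomputed fold changes of the named genes, 323 kept their direction and 37 turned it, all without passing. Without filter, Fbxo5 was -0.0031 and Cul1 -0.0043; with limma-voom, Cdc16 was 0.0032 and Cul1 -0.0019. The replicate numbers could not be taken as pairs: the correlation of deviations was 0.168, 0.0246 and 0.231 for numbers 1, 2 and 3, below the 0.1 asked of every pair for number 2. Each metformin library correlated best with the control of its own number, and 5 of 6 unlike pairs were negative. Deviations from a group mean sum to 0 within the group, so positive like pairs make unlike pairs negative, and those add no support. Control replicate 2 correlated better with metformin replicate 1 (0.0515) than with metformin replicate 2, so the numbers give a hint from the data only. With the replicate block, 7 genes were called, Cdc16 was 0.0038 and Cul1 -0.0018 on the log2 scale. Leaving out 1 library, the log2 fold change ranged from -0.19 to 0.15 for Fbxo5, -0.12 to 0.093 for Cdc16, 0.0083 to 0.34 for Cdc23, -0.010 to 0.071 for Anapc1, -0.10 to 0.17 for Anapc4 and -0.22 to 0.055 for Anapc11. Among other genes it ranged from 0.13 to 0.66 for Anapc2, -0.43 to 0.12 for Cdc26, -0.12 to 0.24 for Anapc10, -0.091 to 0.12 for Anapc16, -0.024 to 0.25 for Ube2c, -0.091 to 0.049 for Ube2d3, -0.43 to 0.47 for Ube2d2a, -0.22 to 0.028 for Ccnb1, -0.20 to 0.14 for Mad2l1, -0.060 to 0.080 for Cul1 and -0.17 to 0.0022 for Sgo2a. The Cdc20 to Fzr1 ratio fell from 40.8 to 33.1 in control libraries per kilobase of the exon union, and to 23.5 (control) and 20.8 (metformin) per kilobase of the main transcript, a scale added after the data were seen; leaving out 1 library gave 38.2 to 42.8 and 31.6 to 40.1. The Fbxo43 to Fbxo5 ratio ranged from 0.840 to 1.06 and 0.862 to 0.978. With about 103 to 165 reads per library, Fzr1 and Cdc16 are the members that depth limits most.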
